A study of Homo sapiens with 12 samples.

Results

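RAI1, SBNO2, RPS19BP1, CTU1, SLMO1, AVPI1, KATNBL1 and MAGEH1 are 8 of the 20212 protein-coding genes whose ribosome footprints (RF) were counted in PANC-1 cells given rapamycin. They were chosen by their RF counts, because these separated the treatments most among the genes looked at, and the choice named no numerical threshold. Of the 8, 6 had more RF counts in rapamycin and 2 had fewer. Their RF counts, and any ratio made from them, are therefore given as a description without a test, and tests are kept for total RNA and isoforms, which the choice did not use. All 8 were tested: a gene needed 10 counts in the RF libraries together and 10 in the total RNA libraries together, which 13329 genes had. MAGEH1 and CTU1, with 39 and 34 RF counts in all, passed this filter through the treatment in which they had counts.

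Rapamycin inhibits mTORC1, a kinase complex that couples nutrients and growth factors to cap-dependent translation. In ribosome footprinting a nuclease removes the mRNA that ribosomes leave uncovered, and the fragments that ribosomes protect are sequenced, with total RNA as the reference. RF counts of a gene depend on the amount of its mRNA and on the number of ribosomes on it, and translation efficiency (TE) is the RF level relative to the RNA level. The mRNAs known as most sensitive to mTORC1 carry a terminal oligopyrimidine (TOP) tract, a C at the cap followed by a run of pyrimidines, and encode mainly ribosomal proteins and elongation factors.

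PANC-1 is a long-established line of human pancreatic cancer cells. The study compared 3 cultures given DMSO, the solvent (0 nM rapamycin), with 3 given 50 nM rapamycin for 60 min, and each culture gave 1 RF and 1 total RNA library. All cultures were of the 1 unmodified cell line, and no source used here says whether they were grown on separate days, so the spread between replicates may be technical. RF counts summed to between 278835 (rapamycin replicate 3) and 1574723 (DMSO replicate 3) per library, and total RNA counts to between 78081241 and 94293744. Genes with a count numbered 16840 and 16858 in total RNA of DMSO replicates 1 and 2, and 19751 to 19847 in the other total RNA libraries. In RF they numbered 12723, 12568 and 15203 in DMSO and 14247, 15402 and 12567 in rapamycin replicates 1, 2 and 3. Why libraries differed in this beyond their depth was not tested. A library with a count of 0 may still hold up to 3 by counting error, a floor of 1.91 to 10.8 CPM (counts scaled to a library of 1e6 counts) in single RF libraries; it covers counting error only. In the 6 total RNA libraries, the epithelial markers KRT8, KRT18 and KRT19 had at least 1326 FPKM (fragments scaled to transcript length and library size), while the epithelial KRT7, CDH1 and EPCAM had 4.58 to 12.02. The mesenchymal VIM had 2410 to 2568 FPKM and CDH2 24.0 to 26.1, and the acinar and endocrine markers at most 0.272. Of the leukocyte markers, CD68 had 69.0 to 88.3 FPKM and PTPRC and CD3E at most 0.215.

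On GRCh37, RAI1 (ENSG00000108557) lies at chr17:17584772-17714767 on the plus strand, SBNO2 (ENSG00000064932) at chr19:1107636-1174267 on the minus strand, and RPS19BP1 (ENSG00000187051) at chr22:39925098-39928766 on the minus strand. CTU1 (ENSG00000142544) lies at chr19:51600863-51611666 on the minus strand, SLMO1 (ENSG00000141391, PRELID3A in GENCODE) at chr18:12407895-12432237 on the plus strand, and AVPI1 (ENSG00000119986) at chr10:99437181-99446998 on the minus strand. KATNBL1 (ENSG00000134152) lies at chr15:34432875-34502297 on the minus strand and MAGEH1 (ENSG00000187601) at chrX:55478560-55479999 on the plus strand. All 8 are annotated as protein-coding. RAI1 is the member with an exon overlapped by another protein-coding gene, SREBF1, on the opposite strand. Whether the counting used strand was not given in the sources used here, so reads in that overlap cannot be told apart. The RF counts of SREBF1 itself were 24, 140 and 169 in DMSO and 81, 88 and 28 in rapamycin.

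The annotated 5′ ends of the leading isoforms are printed because a TOP tract would stand there. The leading isoform is the one with the highest mean FPKM in total RNA. The first 20 bases of each transcript are given 5′ to 3′ from GRCh37, with an unbroken run of C or T from base 1 in capitals.
RAI1-201 (chr17:17584772-17584791, plus strand): gcattcctcgcggcacccgc
SBNO2-201 (chr19:1174248-1174267, minus strand): aagatggcgcccgaaacccg
RPS19BP1-201 (chr22:39928734-39928753, minus strand): aagcgccgccatgtccgccg
CTU1-201 (chr19:51611647-51611666, minus strand): acttccgggccaggcttccg
PRELID3A-208 of SLMO1 (chr18:12407895-12407914, plus strand): CCCgcccacgccgcgcccgg
AVPI1-201 (chr10:99446979-99446998, minus strand): atacctggctagggccgagg
KATNBL1-201 (chr15:34502278-34502297, minus strand): agctatcccggcgggccgcg
MAGEH1-201 (chrX:55478560-55478579, plus strand): aattttgctgagctttctcg
The letters searched for were C at base 1 and C or T at each of the next 4 bases, on the transcript strand. They stood at 0 of the 8 annotated ends and at 4.03% of the leading isoforms of 13080 tested genes. PRELID3A-208 came nearest, with a run of 3. Annotated ends need not be the ends used in these cells, and cap sites were not measured.

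Start codon surroundings are shown for RPS19BP1, which has the shortest leader of the 8, and for MAGEH1, which had 0 RF counts in rapamycin, with the start codon in capitals.
RPS19BP1-201 (start codon at chr22:39928741-39928743, minus strand): aagcgccgccATGtccgccgccctg
MAGEH1-201 (start codon at chrX:55478808-55478810, plus strand): cctctagcaggagacATGcctcggggacga
RPS19BP1 had an annotated 5′ UTR of 10 nt, a length reached or undercut by 319 of 11291 leading isoforms with a coding region. A G directly after the start codon, a base of the usual initiation context, stood in SLMO1, KATNBL1 and AVPI1 and in 52.5% of 11129 leading isoforms.

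RAI1, a chromatin-associated transcriptional regulator whose loss causes Smith-Magenis syndrome, had the most RF counts of the 8. Its RF counts were 12, 44 and 48 in DMSO replicates 1, 2 and 3 and 204, 501 and 115 in rapamycin replicates 1, 2 and 3. In CPM these were 39.6, 49.9 and 30.5 against 162.5, 632.0 and 412.4. The lowest rapamycin library was above the highest DMSO library on both scales. The means were 40.0 ± 9.74 CPM in DMSO and 402.3 ± 235 in rapamycin (SD, n = 3 each), a 10.1-fold ratio. As cultures were measured in bulk, more cells with footprints of a gene and more footprints per cell cannot be told apart. SREBF1, on the other strand, had RF levels of 79.2, 158.9 and 107.3 CPM in DMSO and 64.5, 111.0 and 100.4 in rapamycin, and its treatments overlapped.

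SBNO2, a helicase-like transcriptional regulator known downstream of interleukin-10 and STAT3, was less clearly separated. The counts were 7, 17 and 41 in DMSO and 26, 201 and 49 in rapamycin, so that DMSO replicate 3 lay above rapamycin replicate 1. In CPM they were 23.1, 19.3 and 26.0 against 20.7, 253.6 and 175.7. Rapamycin replicate 1 thus stayed within the DMSO range, and replicates 2 and 3 lay far above it. The means were 22.8 ± 3.38 and 150.0 ± 118 CPM (SD, n = 3 each), a 6.58-fold ratio.

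RPS19BP1, also called AROS, binds the ribosomal protein RPS19 and the deacetylase SIRT1. Its RF counts were 7, 10 and 44 in DMSO and 63, 209 and 63 in rapamycin. The RF level was 23.1, 11.3 and 27.9 CPM in DMSO and 50.2, 263.7 and 225.9 in rapamycin, with no overlap on either scale. The ratio of the means, 20.8 ± 8.53 and 179.9 ± 114 CPM (SD, n = 3 each), was 8.65.

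CTU1 is the catalytic subunit of the enzyme that puts sulfur on the wobble uridine of some cytosolic tRNAs. It had 0 RF counts in each DMSO library and 13, 12 and 9 in the rapamycin libraries, or 10.4, 15.1 and 32.3 CPM. It had the fewest RF counts of the 8 and, of those with more in rapamycin, the most even raw counts there. As library totals differed, its level was less even, from 10.4 to 32.3 CPM. Pooled over each treatment, 34 of 2327200 RF counts in rapamycin gave 14.6 CPM (95% exact Clopper-Pearson interval 10.1 to 20.4). This and the other pooled intervals cover counting error only, not the spread between libraries. In DMSO, 0 of 2759049 allow up to 1.09 CPM. Taking 3 counts over the DMSO group as the floor, the pooled level in rapamycin was 13.4-fold that floor. This ratio leaves out the counting error of the 34 counts and is not a lower bound. The exact interval in DMSO reached 1.337 CPM.

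SLMO1 belongs to the PRELI family, whose members carry phospholipids between the mitochondrial membranes. Its RF counts were 0, 3 and 3 in DMSO and 24, 169 and 39 in rapamycin. In CPM these were 0, 3.40 and 1.91 against 19.1, 213.2 and 139.9. Each rapamycin library was above all DMSO libraries, while every DMSO count was at or below the 3 counts that a count of 0 allows. Pooled, 6 RF counts in DMSO gave 2.18 CPM (exact interval 0.798 to 4.73) and 232 in rapamycin gave 99.7 (87.3 to 113). The single rapamycin libraries all lay outside the latter interval. The pooled ratio was 45.8 (20.7 to 126 by counting error alone) and the ratio of the mean CPM 70.1, so that the size of the fold is uncertain.

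AVPI1 is named for its induction by vasopressin in kidney cells. Its RF counts were 5, 3 and 4 in DMSO and 10, 454 and 38 in rapamycin. Raw counts did not overlap, but in CPM DMSO replicate 1, at 16.5 CPM, lay above rapamycin replicate 1, at 7.96. The other DMSO libraries had 3.40 and 2.54 CPM and the other rapamycin libraries 572.7 and 136.3. Rapamycin replicate 2 alone held 90.4% of the gene's RF counts in rapamycin, against 34.1% of all RF counts of that treatment.

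KATNBL1 resembles the regulatory subunit of katanin, the enzyme that severs microtubules, and had fewer RF counts in rapamycin. Its RF counts were 81, 35 and 107 in DMSO and 11, 6 and 3 in rapamycin. The RF level was 267.1, 39.7 and 67.9 CPM against 8.76, 7.57 and 10.8. The rapamycin libraries lay close together, at 9.03 ± 1.61 CPM (SD, n = 3), and the DMSO libraries were spread over 124.9 ± 124, with replicate 1 far above the other two. The DMSO mean was 13.8-fold that in rapamycin.

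MAGEH1, an X-linked gene of the melanoma antigen (MAGE) family, was the reverse of CTU1. In DMSO it had RF counts of 6, 22 and 11, or 19.8, 25.0 and 6.99 CPM, and in rapamycin 0 in each library. Pooled, 39 RF counts in DMSO gave 14.1 CPM (exact interval 10.1 to 19.3), and the floor in rapamycin was 1.29 CPM. The pooled DMSO level was 11.0-fold this floor, a ratio that leaves out the counting error of the 39 counts and is not a lower bound. The exact interval in rapamycin reached 1.585 CPM. In rapamycin replicate 3, the smallest library, a count of 0 still allows up to 10.8 CPM, more than DMSO replicate 3 had.

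**Figure D1:**
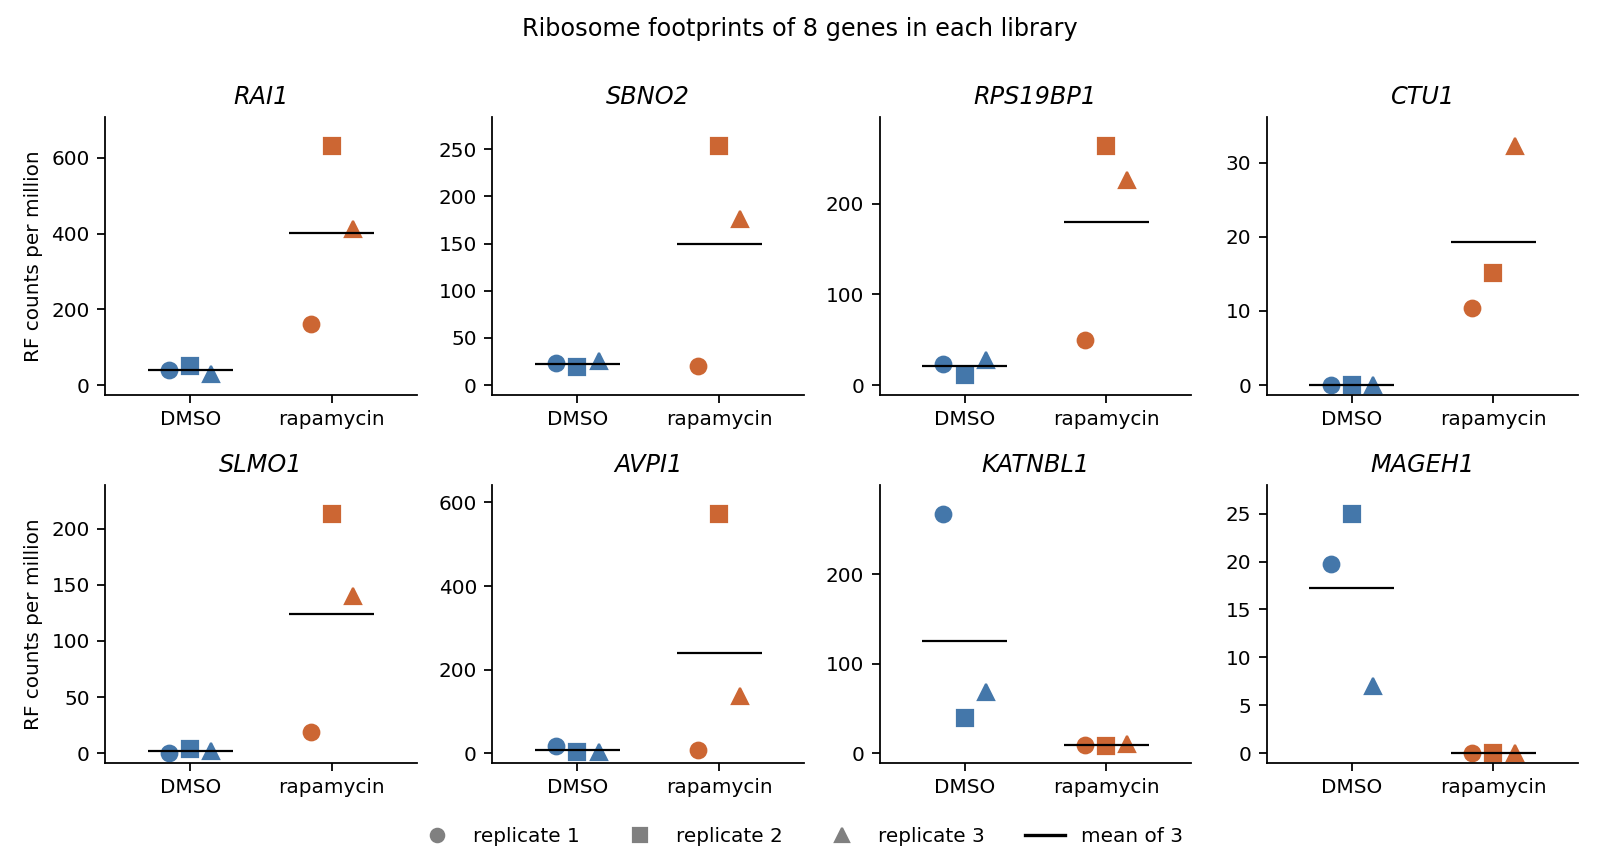
RF CPM (linear vertical axes, each with its own range) of the 8 genes in 3 DMSO and 3 rapamycin libraries; symbols mark replicates and bars the mean of 3. In RAI1, RPS19BP1, CTU1 and SLMO1 all rapamycin libraries lie above the DMSO libraries, in SBNO2 and AVPI1 rapamycin replicate 1 does not, and in KATNBL1 and MAGEH1 all rapamycin libraries lie below.

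In raw RF counts every rapamycin library was above every DMSO library in 5 of the 8 genes, as it was in 1.07% of all tested genes, and below in 2, as it was in 0.645%. In CPM the numbers were 4 above (6.26% of all tested genes) and 2 below (3.47%), and SBNO2 and AVPI1 overlapped. Since the genes were chosen on these counts, nothing is read from their number against these shares. Gaps between the nearest libraries of the treatments on the log2 CPM scale (prior count 2) were ranked over all tested genes. Such ranks describe the choice, which was made on RF separation. For rapamycin below DMSO, MAGEH1 and KATNBL1 ranked 1 and 2. For rapamycin above DMSO, CTU1, SLMO1 and RAI1 ranked 1, 2 and 3, RPS19BP1 57, SBNO2 1849 and AVPI1 4160. The last 2 had a negative gap and were therefore not among the separated genes on this scale.

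The fold changes fitted by edgeR, which scales each library by TMM, are given for the 6 genes with RF counts in both treatments. The SE printed with edgeR folds was derived from the quasi-likelihood F statistic. For RF and TE of the chosen genes it is a description and is not to be read as a test. On the log2 scale, RF was higher in rapamycin by 5.58 ± 0.92 (SE) for SLMO1, 5.39 ± 1.97 for AVPI1, 3.21 ± 0.43 for RAI1, 2.96 ± 0.55 for RPS19BP1 and 2.55 ± 0.73 for SBNO2. KATNBL1 had a log2 fold change of -3.75 ± 0.64. RAI1 had the smallest error of the 6 and AVPI1 the largest. Over all tested genes, edgeR's quasi-likelihood test called 0 in RF (0%) and 0 in TE (0%) at an adjusted p of 0.05. At an unadjusted p under 0.05 it found 234 genes higher and 256 lower in RF, and 823 higher and 856 lower in TE. DESeq2's Wald test called 4 higher and 1 lower in RF, and 654 higher and 582 lower in TE.

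The rapamycin libraries did not contribute equally. In 5 of the 6 genes with higher RF in rapamycin, all but CTU1, the RF level was highest in replicate 2, next in replicate 3 and lowest in replicate 1, an order found in 15.3% of all tested genes. Summed over the 6 genes, the RF level was 270.8, 1950 and 1123 CPM in rapamycin replicates 1, 2 and 3, and 102.2, 87.4 and 88.9 CPM in DMSO. Replicate 2 held 61.1% to 72.8% of the rapamycin RF counts of RAI1, RPS19BP1, SLMO1 and SBNO2, and 35.3% of those of CTU1. Without replicate 2 the RF log2 fold change of AVPI1 was 3.41 in place of 5.39 that of SLMO1 4.91 in place of 5.58, and that of SBNO2 1.89 in place of 2.55. The TE changes of these 3 genes were then 3.05, 4.21 and 1.65, in place of 5.73, 5.45 and 2.49. For KATNBL1 the library that weighed most was DMSO replicate 1, without which its log2 fold change was -2.74. These moves did not change the direction of a gene, which the choice by RF separation makes likely beforehand.

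Total RNA answers whether the mRNA itself changed, and none of the 8 genes passed the test. In edgeR's quasi-likelihood test on the total RNA counts 0 of 13329 genes were called (0%) at an adjusted p of 0.05, while an unadjusted p under 0.05 was reached by 442 higher and 334 lower genes and DESeq2's Wald test called 25 higher and 4 lower. RAI1 had 4377, 4081 and 3914 RNA counts in DMSO and 4001, 4279 and 3967 in rapamycin (log2 fold change 0.11 ± 0.07 SE, edgeR adjusted p = 0.766). KATNBL1 had 5308, 5343 and 5089 against 5306, 4188 and 5243 (0.02 ± 0.05, edgeR adjusted p = 0.907). In both the treatments overlapped.

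The genes with the fewest RNA counts did not pass the test either. SLMO1 had 292, 344 and 319 RNA counts in DMSO and 356, 267 and 286 in rapamycin (log2 fold change 0.04 ± 0.10 SE, edgeR adjusted p = 0.903). MAGEH1 had 454, 388 and 404 against 422, 350 and 436 (0.07 ± 0.09, edgeR adjusted p = 0.811), so its RNA was present in the rapamycin cultures whose RF libraries held no read of it. CTU1 had 346, 289 and 327 RNA counts in DMSO, where its RF count was 0, and 355, 293 and 342 in rapamycin. Its RNA level was 3.67, 3.07 and 3.70 CPM against 3.97, 3.75 and 3.97, a narrow separation found upward in 9.49% and downward in 4.72% of all tested genes (0.16 ± 0.09, edgeR adjusted p = 0.766). AVPI1 had the lowest fold, -0.17 ± 0.10 (edgeR adjusted p = 0.766), from 458, 453 and 417 RNA counts in DMSO and 436, 337 and 316 in rapamycin. Separation depended on the scale. In FPKM the treatments overlapped in CTU1, at 1.511, 1.361 and 1.637 in DMSO and 1.723, 1.705 and 1.6 in rapamycin. AVPI1 overlapped in CPM but not in FPKM, at 3.052, 2.985 and 3.015 in DMSO and 2.966, 2.644 and 2.266 in rapamycin. The share of all tested genes separated in FPKM was not computed.

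The other genes were abundant. SBNO2 had 11598, 11062 and 10696 RNA counts in DMSO and 10847, 9230 and 11086 in rapamycin (log2 fold change 0.02 ± 0.04 SE, edgeR adjusted p = 0.887). RPS19BP1 had 6202, 5495 and 5374 against 5215, 4274 and 5553 (-0.07 ± 0.06, edgeR adjusted p = 0.776). Per length, RPS19BP1 had the highest mean RNA level of the 8, 62.9 FPKM, followed by KATNBL1 with 34.7, and SBNO2 with 25.0. RAI1 (8.55), MAGEH1 (3.37), SLMO1 (3.19), AVPI1 (2.82) and CTU1 (1.59 FPKM) lay below the median of the tested genes, 11.0 FPKM.

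**Figure D2:**
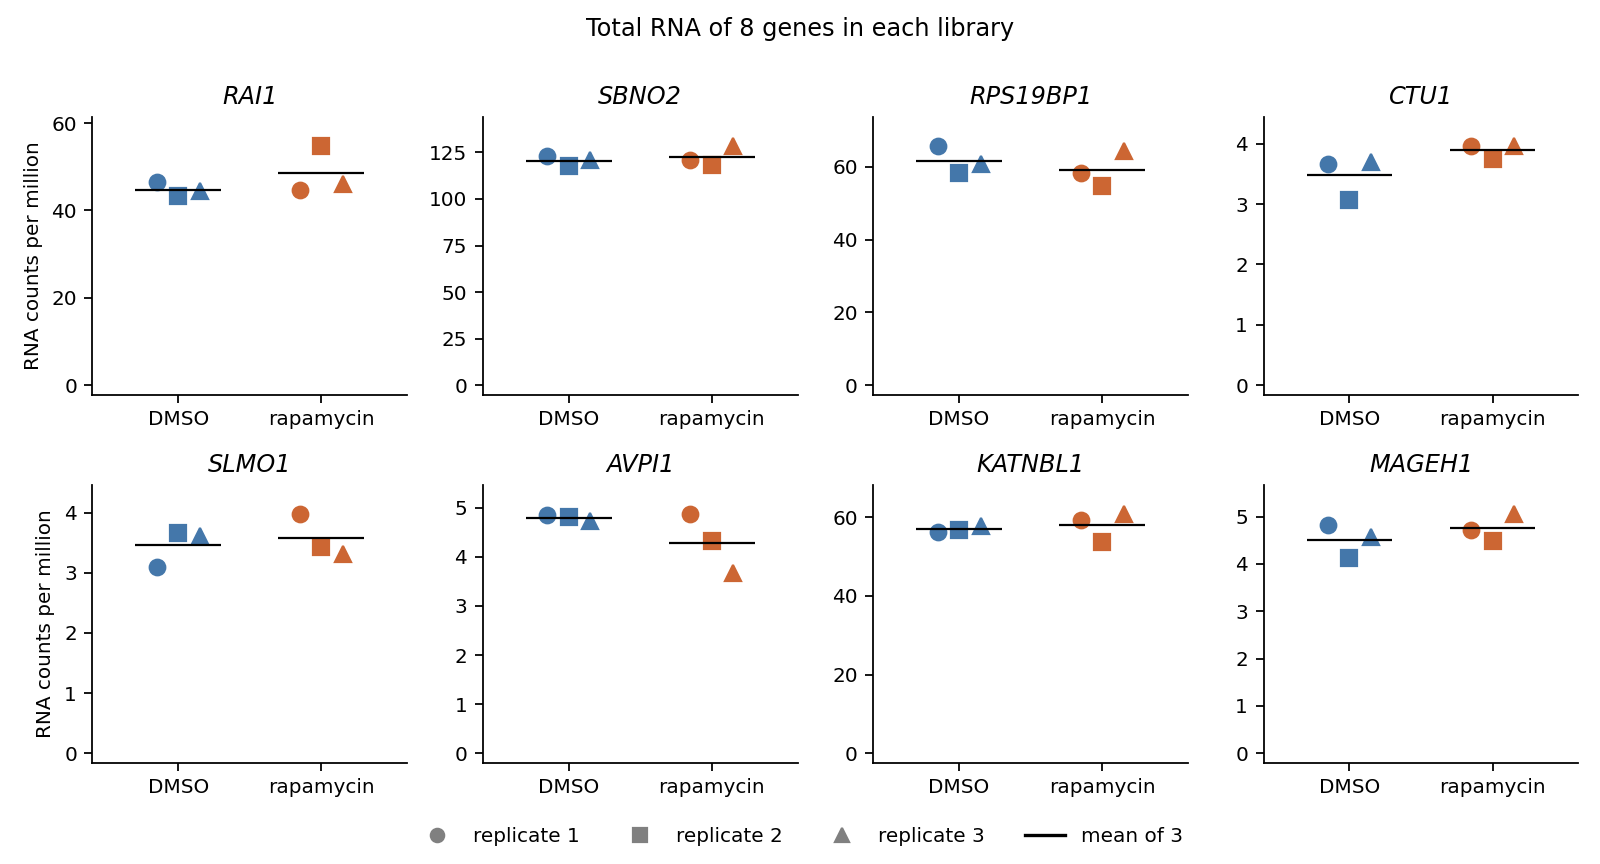
Total RNA CPM (linear vertical axes, each with its own range that includes 0) of the 8 genes in the same 6 cultures; symbols mark replicates and bars the mean of 3. Treatments overlap in 7 genes, and in CTU1 the rapamycin libraries, at 3.75 to 3.97 CPM, lie just above the DMSO libraries, at 3.07 to 3.70.

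**Figure D3:**
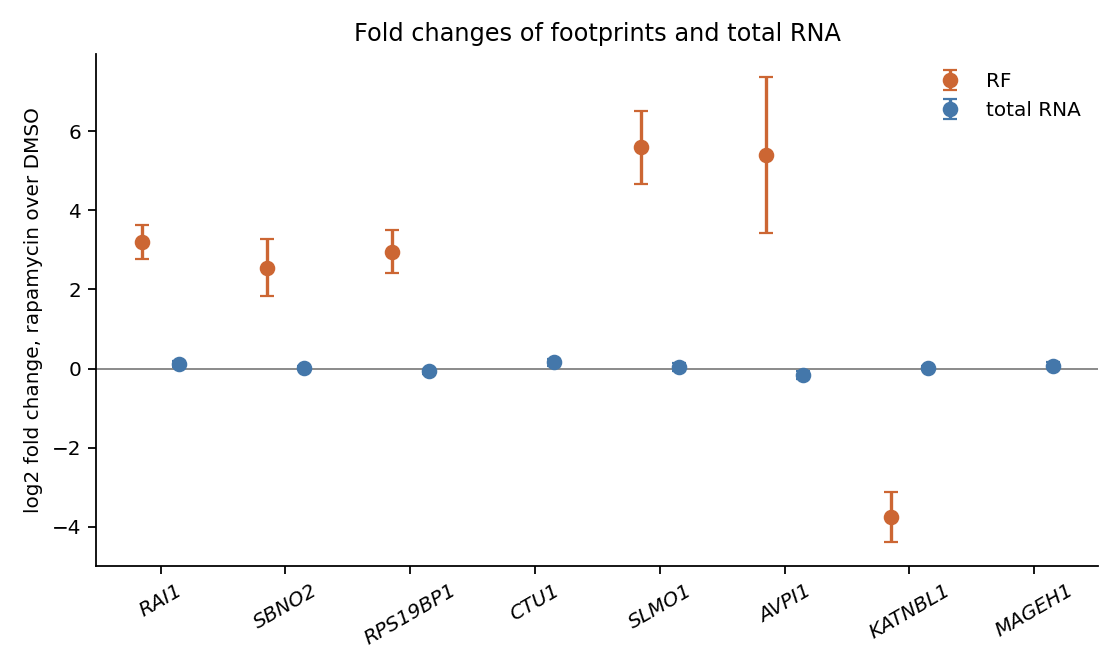
log2 fold change, rapamycin over DMSO, with its SE (edgeR, n = 3 against 3) of RF and of total RNA; RF is not drawn for CTU1 and MAGEH1, which had 0 RF counts in one treatment. RF folds run from -3.75 to 5.58 and total RNA folds from -0.17 to 0.16.

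Set against the RNA of the same culture, SLMO1 had 0, 8.72 and 9.40 RF counts per 1000 RNA counts in DMSO and 67.4, 633.0 and 136.4 in rapamycin. AVPI1 had 10.9, 6.62 and 9.59 in DMSO and 22.9, 1347 and 120.3 in rapamycin. In rapamycin replicate 2 its 454 RF counts thus exceeded its 337 RNA counts, which 288 tested genes did in that library. The median of all tested genes was 6.86 RF counts per 1000 RNA counts there, and 8.69 and 1.86 in rapamycin replicates 1 and 3.

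Because RF depth differed between libraries, the ratio is better read as a place among the tested genes of the same library. RAI1 stood at percentiles 63.4, 73.0 and 54.5 in DMSO and 85.8, 91.0 and 88.9 in rapamycin. SBNO2 had few footprints for its RNA in DMSO, at percentiles 20.7, 27.0 and 15.8, and stood at 16.0, 79.5 and 72.9 in rapamycin. RPS19BP1 stood at 33.9, 29.6 and 38.6 in DMSO and at 61.3, 86.1 and 84.0 in rapamycin.

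SLMO1 stood at 0, 68.2 and 43.7 in DMSO and at 87.8, 96.8 and 94.99 in rapamycin. AVPI1 stood at 86.8, 60.9 and 44.6 in DMSO and at 76.7, 98.3 and 94.6 in rapamycin, so that its treatments overlapped on this scale. KATNBL1 went from percentiles 88.5, 60.6 and 71.7 to 14.2, 6.50 and 22.1. MAGEH1, at 87.8, 89.5 and 76.8 in DMSO, was among the genes rich in footprints for their RNA, and had none in rapamycin. CTU1, with none in DMSO, stood at 82.8, 85.0 and 88.4 in rapamycin. The fitted TE changes were close to the RF changes, since RNA moved little. They were 5.73 ± 1.57 for AVPI1, 5.45 ± 1.26 for SLMO1, 3.10 ± 0.50 for RAI1, 2.97 ± 0.63 for RPS19BP1, 2.49 ± 0.77 for SBNO2 and -3.70 ± 0.73 for KATNBL1 (log2 ± SE).

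A change of isoform could alter footprints without altering the RNA of the gene, and isoform FPKM allowed this to be examined. The deposited table lists 51 isoforms of the 8 genes, of which 30 had a mean of at least 0.5 FPKM and were tested with limma on log2(FPKM + 1). None passed (smallest limma adjusted p = 0.992, smallest unadjusted p = 0.183), and of all 53919 isoforms tested 4 did (0.00742%). CTU1, MAGEH1 and AVPI1 have 1 listed isoform each. In RPS19BP1, RPS19BP1-201 held 95.8% ± 0.31 of the gene's FPKM in DMSO and 94.98% ± 0.68 in rapamycin (SD, n = 3 each).

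RAI1, SBNO2, SLMO1 and KATNBL1 were mixtures. The share of RAI1-201 was 65.8%, 52.9% and 62.9% in DMSO and 60.5%, 63.7% and 61.0% in rapamycin. That of SBNO2-201 was 61.4%, 63.3% and 52.0% against 56.5%, 57.0% and 67.0%, and that of KATNBL1-201 26.5%, 31.5% and 33.0% against 28.9%, 31.6% and 32.2%. In all of these the treatments overlapped.

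PRELID3A-208, the leading isoform of SLMO1, had 32.0%, 48.5% and 47.7% in DMSO and 36.7%, 40.5% and 22.5% in rapamycin, the largest shift of the 5 genes at -9.52 percentage points. The two-sided exact permutation p for the 5 leading isoforms was 0.2 for RPS19BP1, 0.3 for SLMO1, 0.8 for KATNBL1 and 0.9 for RAI1 and SBNO2, with Benjamini-Hochberg values of 0.75 to 0.9. The smallest p that 3 against 3 can give is 0.1. The other isoforms with at least 10% of a gene's FPKM were RAI1-204 and RAI1-206, PRELID3A-203 and PRELID3A-204, and KATNBL1-209, KATNBL1-213 and KATNBL1-216. KATNBL1-209 held 12.8%, 12.9% and 11.0% in DMSO and 14.5%, 13.1% and 15.7% in rapamycin, without overlap (exact p = 0.1). It encodes protein by its annotation, and its FPKM did not pass limma's test (adjusted p = 0.992).

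**Figure D4:**
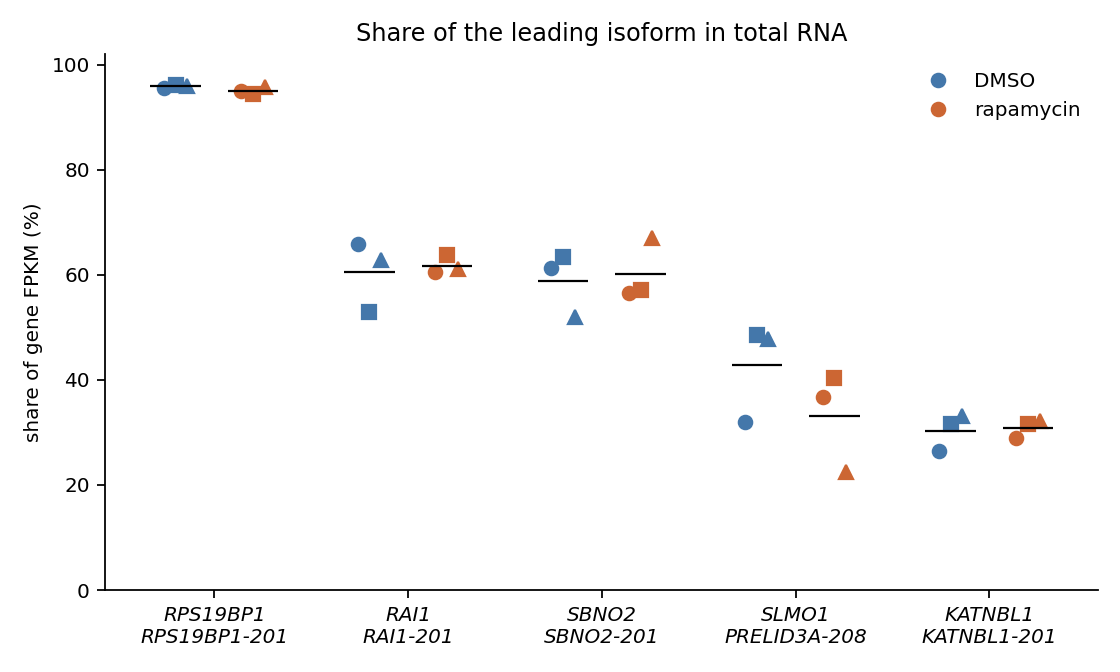
Share of the gene's FPKM held by the leading isoform (vertical axis, %) in the 5 genes with several listed isoforms, in 3 DMSO and 3 rapamycin total RNA libraries; symbol shapes are replicates 1 (circle), 2 (square) and 3 (triangle), and bars are means of 3. The shares run from about 95% in RPS19BP1 to about 30% in KATNBL1, and treatments overlap in each gene.

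The choice by RF counts did not use the make-up of the mRNAs directly. As RF levels moved with GC content in some libraries (below), GC content is not independent of the choice. Over their full length, the leading isoforms of the 6 genes with higher RF in rapamycin were GC-rich: SLMO1 58.3%, AVPI1 59.4%, RPS19BP1 62.6%, RAI1 64.1%, SBNO2 66.6% and CTU1 68.3%. They stood at percentiles 77.4 to 99.0 of the tested genes, whose median was 49.7%. In the coding region alone SLMO1 had 43.9%, and AVPI1, RPS19BP1, RAI1, SBNO2 and CTU1 had 63.2% to 77.0%. The isoform of SLMO1 held a mean of 42.7% of the gene's FPKM in DMSO and 33.2% in rapamycin. KATNBL1, at 34.7%, was at percentile 1.07, and MAGEH1, at 47.5%, near the median. Over 13080 tested genes the RF fold change moved weakly with GC content (Spearman's rho 0.136 across genes, which share the libraries). Its median went from -0.13 in the fifth of genes with the lowest GC content to 0.17 in the fifth with the highest, on the log2 scale.

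The libraries differed in this. The rank correlation of a gene's RF level, relative to its mean over libraries, with GC content was 0.147 in rapamycin replicate 2, 0.0962 in rapamycin replicate 3 and -0.109 in DMSO replicate 3, and within -0.0463 to -0.0373 in the others. After a correction for GC content within each library, chosen after seeing the data, the RF log2 fold changes were 5.32 for SLMO1, 5.07 for AVPI1, 2.85 for RAI1, 2.67 for RPS19BP1, 2.17 for SBNO2 and -3.69 for KATNBL1. CTU1 and MAGEH1 had no RF counts in one treatment, and no corrected fold is given for them.

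**Figure D5:**
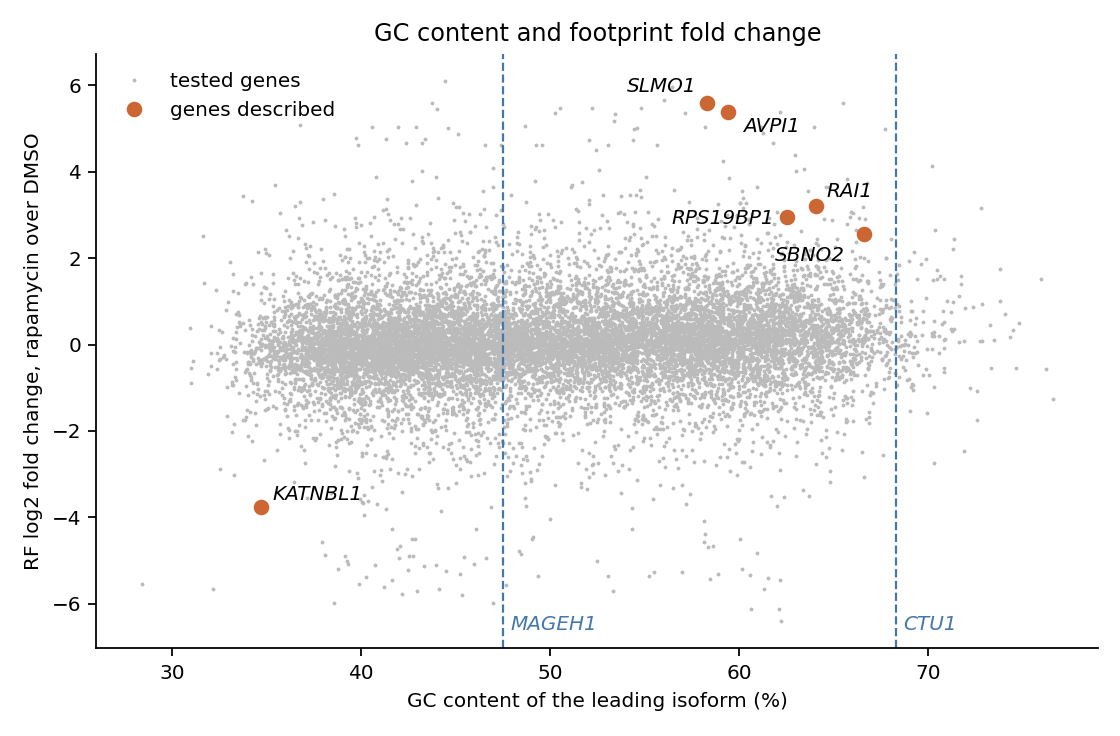
GC content of the leading isoform (horizontal axis, %) against the RF log2 fold change (vertical axis) of the tested genes with a GC content in grey and of 6 of the described genes in orange; dashed lines mark the GC content of MAGEH1 and CTU1, whose fold is not drawn. The 5 orange genes above 0 lie between 58.3% and 66.6% GC, and KATNBL1 at 34.7%.

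Length did not set the genes apart in one way. RAI1, with a leading isoform of 7677 nt and a coding region of 5718 nt, was among the longest tested, and SBNO2 had 4906 and 4098 nt. SLMO1 (777 nt, coding 246), RPS19BP1 (820, coding 408), AVPI1 (1375, coding 441) and MAGEH1 (1440, coding 657) were shorter than the median of 2542 nt. AVPI1 and RAI1 had the longest 5′ UTRs of the 8, with 486 and 484 nt, and RPS19BP1 the shortest with 10 nt, against a median of 137 nt. CTU1 (2126 nt) and KATNBL1 (2740 nt) lay near the median length, with 5′ UTRs of 84 and 160 nt.

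Genes known to work with the 8 were listed to see whether they moved beside them. Of 72 such genes 62 were tested, and edgeR called 0 in RF, 0 in total RNA and 0 in TE. At an unadjusted p under 0.05, 0 were higher in RF, against 1.76% of all tested genes, and 3 lower, against 1.92%, namely CCAR2, SIRT1 and TRO. In CPM, every rapamycin library was above every DMSO library in 4 of the 62, RPS19, FIGNL1, NFS1 and TRMU, and below in 1, SIRT1, against 6.26% and 3.47% of all tested genes. Their median RF log2 fold change was 0.03, against 0.02 over all tested genes.

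RPS19, which RPS19BP1 binds, had RF counts of 173, 410 and 923 in DMSO and 748, 480 and 167 in rapamycin (log2 fold change 0.07 ± 0.20 SE, edgeR adjusted p = 0.9999). SIRT1, a deacetylase that RPS19BP1 activates, had 19, 43 and 80 against 28, 20 and 10 (-1.07 ± 0.48, edgeR adjusted p = 0.9999). CCAR2, an inhibitor of SIRT1, had 42, 271 and 84 against 74, 30 and 6 (-2.09 ± 0.63, edgeR adjusted p = 0.9999).

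In the group of CTU1, the tRNA-modifying enzymes of the wobble uridine, 15 of 15 genes were tested and none was called. TRMT112, a cofactor of several methyltransferases, had an RF log2 fold change of 0.15 ± 0.28 (SE) and ELP2, a subunit of Elongator, -0.09 ± 0.45. CTU2, the partner subunit of CTU1, had RF counts of 11, 3 and 18 in DMSO and 45, 14 and 4 in rapamycin (0.61 ± 0.82). It is named after its values were seen, as are NFS1, TRMU and TRO.

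The RF log2 fold changes of the other lists lay around 0. In the list of RAI1, PHF14, listed as a nucleosome-binding partner, had -0.32 ± 0.35 and the clock repressor CRY1 -0.48 ± 0.47. In that of SLMO1, its relative SLMO2 had 0.02 ± 0.35 and PISD, which makes phosphatidylethanolamine in mitochondria, 0.49 ± 0.57. For KATNBL1, the katanin subunit KATNA1 had -0.09 ± 0.76 and FIGNL1, a related ATPase, 0.39 ± 0.57.

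For SBNO2, STAT3 had an RF log2 fold change of -0.17 ± 0.25 and its activating kinase JAK1 -0.06 ± 0.33. Of the MAGE family, 5 of 11 listed genes were tested; MAGED1 had -0.03 ± 0.33 and MAGED2 -0.62 ± 0.46, and TRO -2.74 ± 1.23 from 47 RF counts. Of the vasopressin and sodium channel genes listed for AVPI1, 6 of 9 were tested, with SGK1, a kinase that acts on sodium transport, at 1.08 ± 0.74 and SCNN1A, a sodium channel subunit, at -0.15 ± 0.90 (log2 ± SE). In all of these genes the edgeR adjusted p was 0.9999.

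By likeness of the RF profile over the 6 RF libraries, among 8727 other tested genes with at least 50 RF counts, the genes nearest to the mean profile of the 6 genes with higher RF were LRRC10B (Pearson's r = 0.973), STAT5A (0.972) and H2AFX (0.968). The RF counts of LRRC10B were 1, 0 and 1 in DMSO and 5, 38 and 14 in rapamycin. STAT5A had 8, 16 and 39 against 34, 53 and 19, or 26.4, 18.2 and 24.8 CPM against 27.1, 66.9 and 68.1. Nearest to the mean profile of KATNBL1 and MAGEH1 were CDKN1B (0.985), ERLIN1 (0.984) and CDC42 (0.980). CDKN1B had RF counts of 12, 26 and 36 in DMSO and 20, 12 and 5 in rapamycin, or 39.6, 29.5 and 22.9 CPM against 15.9, 15.1 and 17.9. Pearson's r does not reflect the size of a change. ERLIN1 moved little, from 112.1, 88.5 and 91.4 CPM in DMSO to 71.7, 79.5 and 86.1 in rapamycin. The points share libraries and depth, and the r values are a description over 6 libraries.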

How the data were processed

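Per the paper's methods and the labels' processing notes, the authors quality-filtered RF reads, trimmed the linker and removed ribosomal RNA, and both library types were aligned by HISAT2 to GRCh37. The deposited counts are unnormalized, from featureCounts over the exons of protein-coding genes, for reads that aligned to 1 place. FPKM values of genes and isoforms, and a signal per isoform (fragments divided by a size factor), were deposited by the authors from Cufflinks 2.2.1 and Cuffnorm. Other versions, the annotation version and strand settings are not given in the sources used here. In the count table, columns of the authors' own TE comparison (TE per treatment, its fold change, p-value and adjusted p-value) and a column of mean DMSO RNA counts were not used. The normalized gene signal was not used.

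Counts were fitted over all genes with at least 10 RF and 10 RNA counts with edgeR 4.0.16's robust quasi-likelihood test (R 4.3.3) after TMM within each library type. RF and total RNA were tested by treatment, and TE as the interaction of type and treatment, which assumes 1 spread for both types. The SE of an edgeR fold is the absolute log2 fold change divided by the square root of the quasi-likelihood F statistic. Isoforms with a mean of at least 0.5 FPKM were fitted by limma 3.58.1 with trend on log2(FPKM + 1), a scale that understates changes of low isoforms. p-values were adjusted by Benjamini and Hochberg's method across all tested genes or isoforms. CPM are counts scaled to the total of their library. Leading isoform shares were compared by exact permutation (scipy 1.17.1). GENCODE gene models on GRCh37 gave coordinates, lengths, GC content and bases, and their version differs from that of the counts. Of 13329 tested genes, 98.1% had a GC content. Each fit was tested on simulated data: the RF fit recovered few of the changed genes, and the TE fit called a few genes where none had changed, so its errors may be too small.

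Members and gene lists were chosen with earlier results of these data known. Named beside the 8 genes were, per list, those with an adjusted p under 0.05 or else the 2 with most RF counts; the 3 tested genes with at least 50 RF counts of most similar RF profile in each direction; and isoforms with at least 10% of a gene's FPKM. Other names were chosen after their values were seen. Alternatives were DESeq2 1.42.0 (size factors, Wald test), filters of 1 and 50 counts, TMM over all libraries, a replicate block, a culture term, leaving out libraries, a pseudocount of 0.1, no FPKM minimum and, chosen after seeing the data, a GC correction. Start codon surroundings of the other members are not reported here.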

Additional observations from a re-analysis of the deposited data

How the results depend on the processing

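Under the alternatives run, no RF or TE fold change of the 6 genes with counts in both treatments changed direction. As the genes were chosen for RF separation, this was largely set by the choice and is not a test. Of 78 alternative values each, 76 moved by less than their replicate spread, the SD of log2 levels within treatments. This spread was wide: AVPI1 in RF went from 5.39 to 3.41 without rapamycin replicate 2 and stayed within it. KATNBL1 without DMSO replicate 1 moved to -2.74 in RF and -2.79 in TE, and to -2.81 in RF with the 4 largest RF libraries, and AVPI1 without rapamycin replicate 2 moved to 3.05 in TE. Total RNA folds near 0 changed sign without single libraries: SLMO1 ranged from -0.043 to 0.096, with -0.033 without DMSO replicate 1 and -0.043 without rapamycin replicate 1, KATNBL1 from -0.016 to 0.068 and SBNO2 from -0.015 to 0.041, both lowest without rapamycin replicate 3; none of these was called. With a minimum of 50 counts CTU1 and MAGEH1 were not fitted.

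The number of genes called was 0 in each main test and depended on the tool and filter; the cause was not tested. DESeq2's Wald test called 4 higher and 1 lower in RF, 25 and 4 in total RNA, and 654 and 582 in TE. A minimum of 1 count gave 10 higher and 10 lower in RF, and the GC correction 1 higher. Leaving out a culture removed both its RF and its total RNA library, and genes were filtered again (12461 to 13134 tested). This gave 0 to 5 higher and 0 to 1 lower in RF, 0 to 683 and 0 to 4 in total RNA. In TE it gave 0 to 65 higher and 0 to 331 lower. The upper ends came without DMSO replicate 3 in total RNA and TE. The DMSO total RNA libraries then left were those with 16840 and 16858 genes detected, and a link was not tested. In RF the upper ends came without rapamycin replicate 1 (higher) and without DMSO replicate 2 (lower). Isoforms called went from 4 to 328 with no FPKM minimum, and from 1 to 7 without single libraries.

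No pairing by replicate number was seen: deviations of same-numbered DMSO and rapamycin libraries correlated at -0.118, -0.0607 and -0.0743 in RF and at -0.107, -0.119 and -0.216 in total RNA. Deviations of RF and total RNA libraries labelled as the same culture correlated at -0.0961 (DMSO replicate 3) to 0.00806 (rapamycin replicate 1). Values this low cannot show whether libraries were paired or not. With the replicate block edgeR called 4 higher and 2 lower in RF, 1 higher in TE and 0 isoforms by limma.

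The shift in the share of the leading isoform, in percentage points, changed sign for RAI1 with normalized counts in place of FPKM (-0.40, exact p = 0.6). Without single libraries it ranged from -2.62 to 3.88 for RAI1, -1.40 to 1.90 for KATNBL1, -2.18 to 3.47 for SBNO2, -1.21 to -0.54 for RPS19BP1 and -14.9 to -4.17 for SLMO1, and it changed sign without DMSO replicate 2 in RAI1, without DMSO replicate 1 (-1.40) or rapamycin replicate 3 (-0.10) in KATNBL1, and without DMSO replicate 3 (-2.18) or rapamycin replicate 3 (-2.16) in SBNO2. RF depth limits CTU1, MAGEH1 and SLMO1, whose counts in one treatment were at or under the floor of 3, and AVPI1, with 3 to 5 in DMSO.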
